A study of Drosophila melanogaster with 9 samples.

Results

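The janus and ocnus locus of Drosophila melanogaster holds the neighbouring paralogs janA, janB and ocn. They were taken by name from a table of gene expression in testes, which contains all 3 among 7539 genes (janA FBgn0001280, janB FBgn0001281, ocn FBgn0041102). They were chosen by name with their log2(RPKM) values in the mutant and control libraries in view, so the genotype differences of these 3 genes are a description and carry no p-value. The RNA-seq covered testes of adults aged 3 to 5 days and kept at 25 °C, with 2 libraries of the Dm310s mutant, which lacks the miR-310 cluster of microRNAs, and 2 libraries of the control. Both lines were derived from the P-element stock EP(2)2587, so the controls carry that stock's background too. The number of animals per library is not given in the sources used here, nor is it said that replicate libraries came from different dissections, and p-values therefore measure a spread that may be technical. The series also holds small RNA libraries, which were not used here.

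The 3 genes lie side by side on the right arm of the third chromosome, in the order ocn, janB, janA in the RefSeq Release 6 annotation, with no other gene between them. The family is named after ocnus and includes the mammalian phosphohistidine phosphatase PHPT1, an enzyme that removes phosphate from histidine residues of proteins. janA is transcribed in both sexes and in many tissues, whereas janB and ocn are transcribed in the male germ line. The start of janB lies within the end of janA, and sequences that direct janB expression in spermatocytes, the germ cells that go through meiosis, are found in that shared stretch. The annotated spans of janA and janB overlap and those of janB and ocn do not. A read from the shared stretch could have been counted for either gene, and the treatment of such reads is not given.

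Testis identity was checked on germ line markers. Of 10 such genes, 9 were in the table, while the spermatogonial gene bam was not analysed here. Their levels ranged widely. The testis tubulin betaTub85D stood at a log2(RPKM) of 9.11 to 9.25 in the 4 libraries, and can at 1.03 to 1.51, near the lowest value of 1.00. The markers do not show purity, since the accessory gland gene SP stood at 10.12 to 11.02. RPKM is a read count scaled to transcript length and library size, so levels of different genes can be compared per length. Once sorted, the columns of the 4 libraries were never more than 0.044 apart (log2), so a value largely gives the rank of a gene within its library. Over the genes of the table, which do not count as replicates, Pearson's r was 0.994 for the control pair of libraries and 0.993 for the mutant pair.

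All 3 genes were among the abundant transcripts of these testes. On the log2(RPKM) scale, ocn reached 8.90 and 8.82 in the control libraries (replicates 1 and 2) and 8.94 and 8.98 in the mutant libraries (replicates 1 and 2). Its level was nearly the same in the 4 libraries, the highest exceeding the lowest 1.11-fold on the RPKM scale, and both mutant libraries lay just above both controls. Averaged over the 4 libraries, ocn ranked 59 from the top of 7539 genes.

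janB, the testis paralog next to ocn, had a log2(RPKM) of 8.71 in control replicate 1 and 9.02 in control replicate 2, and of 7.98 in mutant replicate 1 and 8.42 in mutant replicate 2. Both mutant libraries lay below both control libraries, with mutant replicate 1 the lowest and control replicate 2 the highest, a 2.06-fold range on the RPKM scale. It ranked 78 from the top by its mean level.

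janA, the broadly transcribed member, had a log2(RPKM) of 7.46 and 7.74 in control replicates 1 and 2, and of 6.79 and 7.23 in mutant replicates 1 and 2. The libraries took the same order as for janB, and the groups did not overlap. janA was the lowest of the 3 genes in every library and ranked 215 from the top of the table.

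**Figure D1:**
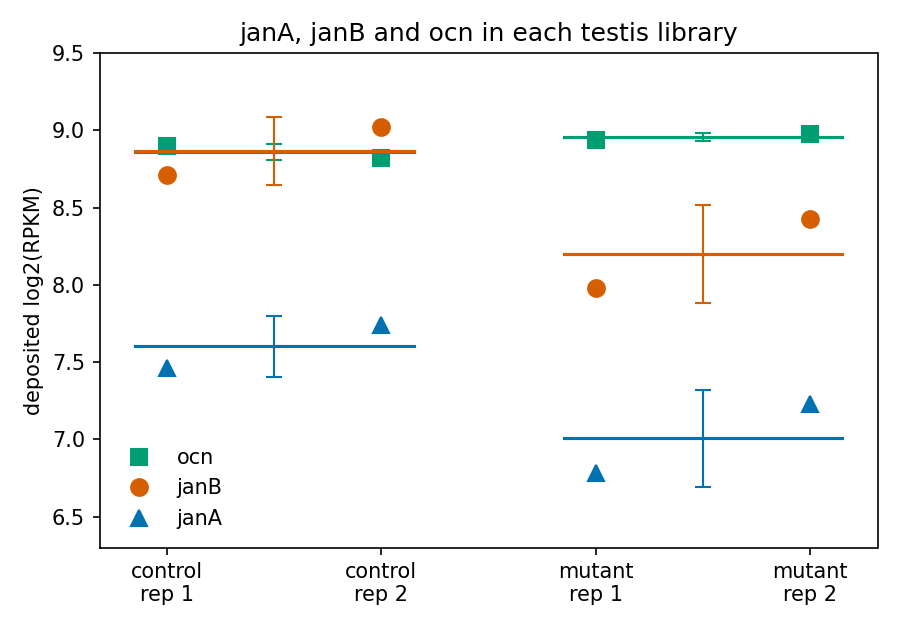
Deposited log2(RPKM) of ocn (squares), janB (circles) and janA (triangles) in each of the 4 testis libraries; horizontal lines are group means and error bars are SD (n = 2 libraries per group). The ocn points stay between 8.82 and 8.98, while janB and janA are both lower in the mutant libraries and both lowest in mutant replicate 1.

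As group means of log2(RPKM), ocn went from 8.86 ± 0.05 in control to 8.96 ± 0.03 in mutant testes (SD, n = 2 each), a difference of 0.10. janB went from 8.87 ± 0.22 to 8.20 ± 0.32, a difference of -0.67, which corresponds to 63.0% of the control level. janA went from 7.60 ± 0.20 to 7.01 ± 0.31, a difference of -0.60 or 66.2% of control. The size of the latter pair of differences depended on single libraries: without mutant replicate 1 they were -0.44 for janB and -0.37 for janA, and without mutant replicate 2 they were -0.89 and -0.82.

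The groups did not overlap for any of the 3 genes, with janB and janA lower and ocn higher in the mutant. Such a lack of overlap was seen for 50.4% of all 7539 genes, 24.2% with the mutant lower and 26.2% with the mutant higher. In limma, a linear model fitted over the whole table with Benjamini-Hochberg adjustment, 1.5% of genes passed an adjusted p of 0.05, 0.955% lower and 0.544% higher in the mutant. Without adjustment, 17.7% of genes stood at a p under 0.05. Since this contrast was used in choosing janA, janB and ocn, nothing is read from their lack of overlap, and the test is used below for other genes.

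The place of these differences among all genes is given as a description of values that were in view when the 3 genes were chosen, and supports nothing. A larger difference in either direction was found for 2.25% of all genes in the case of janB and for 3.00% in the case of janA, against 51.6% for ocn. Among the 77 genes with a higher mean level than janB, 1 had a lower mutant-minus-control value, the sex peptide gene SP of the accessory gland, at -0.75. Among the 214 genes with a higher mean level than janA, 3 did: SP, janB and CG6770, the last at -0.64.

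The libraries of one genotype also differed more for janA and janB than for most genes. Between the control libraries the gap was 0.28 for janA and 0.31 for janB on the log2 scale, against a median of 0.086 over all genes. Between the mutant libraries it was 0.44 for janA and 0.45 for janB, against a median of 0.10, and 4.01% and 3.91% of genes had a wider gap. For ocn the gaps were 0.076 and 0.037, both below the medians.

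**Figure D2:**
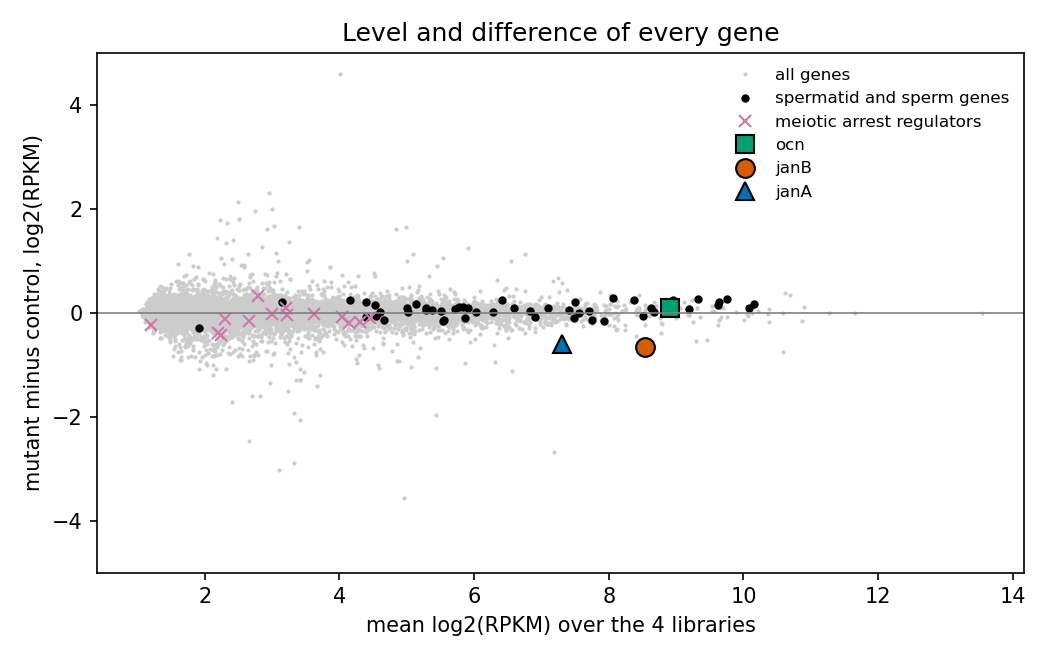
Mean log2(RPKM) over the 4 libraries (horizontal axis) and mutant-minus-control difference of log2(RPKM) (vertical axis) of all 7539 genes in grey, with the listed spermatid and sperm genes (black points), meiotic arrest regulators (crosses) and ocn, janB and janA (large symbols). janB lies at -0.67, janA at -0.60 and ocn at 0.10 on the vertical axis.

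The spacing between the genes within a library separated ocn from the janus pair. On the log2(RPKM) scale janB exceeded janA by 1.25 and 1.28 in control replicates 1 and 2 and by 1.19 in each mutant library. That is a ratio of RPKM between 2.28 and 2.43 in all 4 libraries, although the level of janA itself varied 1.94-fold. The spacing nevertheless was narrower in both mutant libraries than in both controls, by 0.07 in the group means (1.26 ± 0.02 in control and 1.19 ± 0.0022 in mutant, SD, n = 2 each).

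ocn exceeded janA by 1.43 and 1.08 in the control and by 2.15 and 1.75 in the mutant libraries. The mean spacing was 1.26 ± 0.25 in control and 1.95 ± 0.29 in mutant testes, a ratio of RPKM of 2.39 and 3.86, and both mutant libraries lay above both controls. Against janB, the log2 difference of ocn was 0.19 in control replicate 1 and -0.20 in control replicate 2, and it was 0.96 and 0.55 in mutant replicates 1 and 2. The order of ocn and janB thus could not be told apart in control testes, where they differed by less than the spread between libraries, while ocn was the most abundant of the 3 in both mutant libraries. These spacings rest on the same libraries and contrast as the differences above.

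Expressed as shares of the summed RPKM of the 3 genes, ocn made up 44.4% and 38.1% in control and 57.5% and 50.5% in mutant replicates 1 and 2. janB made up 39.1% and 43.8% in control and 29.5% and 34.4% in mutant testes. The share of janA lay between 12.9% and 18.1%.

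**Figure D3:**
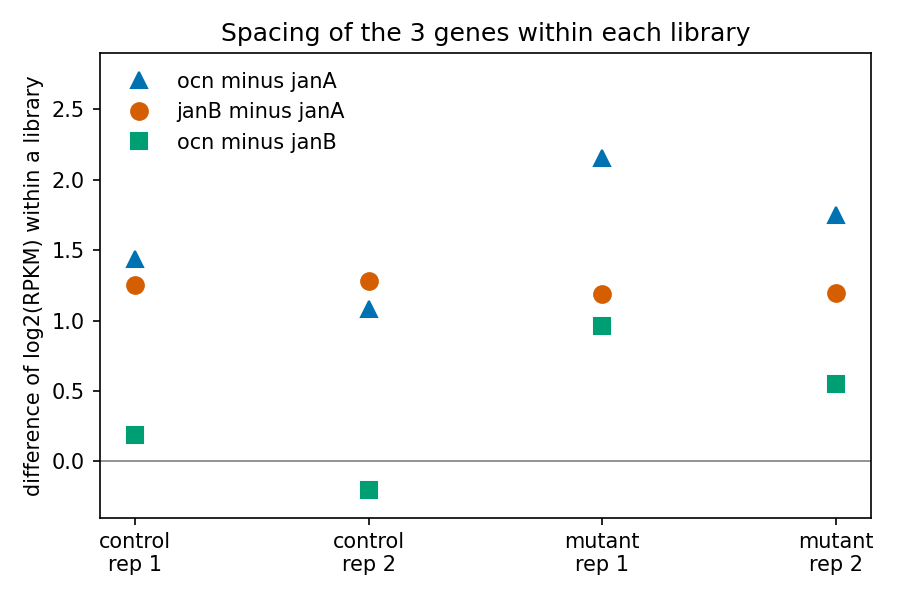
Differences of log2(RPKM) between pairs of the 3 genes within each testis library; each point is 1 library. janB minus janA stays between 1.19 and 1.28, whereas ocn minus janA and ocn minus janB are higher in both mutant libraries than in both controls.

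Genes with the most similar pattern were found from the 4 library values of each gene after subtracting its own mean, by the root mean square distance on the log2 scale. For janA the nearest of all other genes was janB, at a distance of 0.037, against a median of 0.37 over all genes. The mitochondrial ribosomal protein gene mRpL14 came next at 0.050, followed by CR40642 at 0.061. For janB the nearest was CR40642 at 0.030, then janA, then mRpL14 at 0.083. ocn was nearest to the ribosomal protein gene RpS2 at 0.0039, to lark, which encodes an RNA-binding protein, at 0.0044, and to Eaf, which encodes a transcription elongation factor, at 0.0072. janA and janB lay at 0.40 and 0.43 from ocn, whose median distance to all other genes was 0.10. With 4 libraries, such likeness describes these libraries only.

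Neighbouring genes with overlapping spans are given as a reference for the janA and janB pair. The distances of the 3 genes rest on values in view when they were chosen, so the shares below are only a description. Pairs were not matched for how much their values varied between libraries. Over 1255 pairs of neighbouring measured genes that overlap in the annotation and do not have identical values, the median distance was 0.085, and 22.2% of pairs were closer than janA and janB. Left out were 123 overlapping pairs with identical values, which would raise that share. Among pairs without overlap, 0 had identical values. Over 6101 neighbouring pairs without overlap the median was 0.13, and 3.15% were closer. The distance of 0.43 between ocn and janB exceeded that of 95.8% of the pairs without overlap, but it was ordinary for janB, whose median distance to all other genes was 0.40. None of the 3 genes had values identical to those of another gene. Neither the share of janA and janB reads that came from the overlap nor its part in their parallel course was tested.

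The genes on either side of the locus were examined next. Of the 8 annotated genes on each side, 16 in all, 8 were in the table, and limma called none of them higher or lower. RpL32 and CG7920, 2 of the 8, stood at an unadjusted p under 0.05, as did 17.7% of all genes. Their differences, over the 8 genes, ran from -0.36 to 0.22 with a median of -0.09, beside a median of 0.0045 over all genes. Of the 8, 6 were negative and 2 positive, where 51.3% of all genes were positive. With 8 genes, nothing is read from these counts.

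Next to ocn, CG7928, which encodes the zinc finger protein ZIPIC, had log2(RPKM) values of 1.68 and 1.76 in the controls and of 1.63 and 1.84 in the mutants, so its groups overlapped. The antisense RNA CR44045 beyond it differed by -0.09 (SE 0.07). On the side of janA, Sry-alpha and Sry-beta were not analysed here, and Sry-delta, a zinc finger gene of the serendipity cluster, had values of 2.39 and 2.32 in the controls and of 2.37 and 2.21 in the mutants, which overlapped. The ribosomal protein gene RpL32 measured 7.44 and 7.53 in the controls and 7.24 and 7.25 in the mutants, a difference of -0.24 (SE 0.06) that did not pass in limma (adjusted p 0.124). Its control level was close to that of janA.

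Farther out, RpS28a, a ribosomal protein paralog, differed by -0.36 (SE 0.22) and Mgat2, an enzyme of N-glycan synthesis, by -0.34 (SE 0.14), with adjusted p of 0.448 and 0.287 in limma. CG7920 differed by 0.22 (SE 0.07, adjusted p 0.19) and CG7946, which encodes the chromatin protein JASPer, by -0.09 (SE 0.09). No flanking gene had a pattern closer than 0.24 to that of janA.

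**Figure D4:**
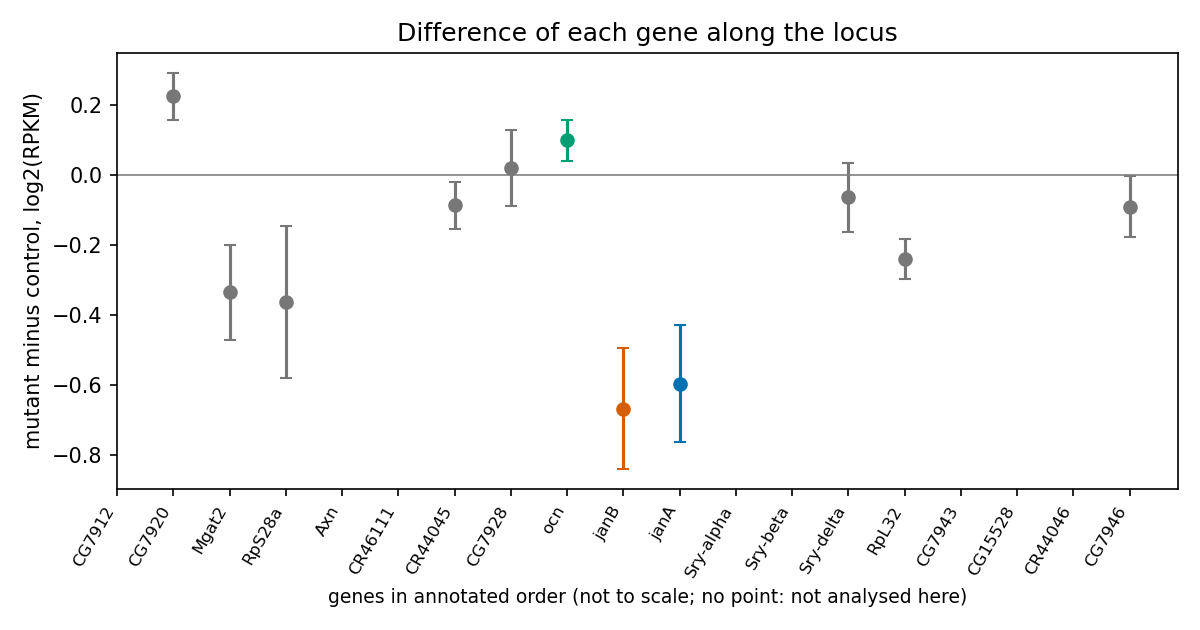
Mutant-minus-control difference of log2(RPKM) for ocn, janB, janA (coloured) and the 8 annotated genes on each side (grey), in annotated order and not to scale; error bars are the standard error from limma, and genes without a point were not analysed here. janB and janA are the lowest points, and the measured flanking genes lie between -0.36 and 0.22. The bars of ocn, janB and janA are no test, since this contrast was in view when these genes were chosen.

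Genes of later spermatogenesis were followed as a list. Many transcripts of spermatid differentiation and of sperm are made in spermatocytes, stored and translated after meiosis, but the list was not restricted to such transcripts. Of 54 such genes listed, 51 were measured, and 37 of them (72.5%) had a positive difference, as did 51.3% of all genes, with a median of 0.06 beside 0.0045 over all genes. limma called none of them, and 15 (29.4%) stood at an unadjusted p under 0.05, against 17.7% of all genes. The difference of ocn, 0.10, lay inside their range of -0.30 to 0.28, whereas those of janB and janA lay below the lowest of them, that of the dynein heavy chain gene Dhc98D; a difference between the list and the 3 genes was not tested.

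Among the smallest p-values of that list were Mst98Cb, a sperm tail gene, at 0.27 (SE 0.06), and S-Lap8, a sperm leucyl aminopeptidase gene, at 0.25 (SE 0.06), with adjusted p of 0.112 and 0.116 in limma. The aminopeptidase-like gene loopin-1 differed by 0.26 (SE 0.06) and S-Lap3 by 0.28 (SE 0.07), with adjusted p of 0.133 and 0.134. In level, 9 of the 51 genes exceeded ocn, 11 exceeded janB and 21 exceeded janA.

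Meiotic arrest regulators switch on the transcription programme of spermatocytes. Of 16 listed, 14 were measured. Of these, 12 had a negative and 2 (14.3%) a positive difference (mia and Caf1), where 51.3% of all genes were positive, and the median was -0.11. limma called none. At an unadjusted p under 0.05 stood 3, or 21.4% (tomb, wuc and mia), against 17.7% of all genes. tomb, a DNA-binding subunit of the testis meiotic arrest complex, had a log2(RPKM) of 2.47 and 2.43 in the controls and of 2.05 and 2.01 in the mutants, a difference of -0.42 (SE 0.08, adjusted p 0.0898 in limma). The LIN-52 relative wuc differed by -0.39 (SE 0.10, adjusted p 0.153), mip40 by -0.19 (SE 0.08, adjusted p 0.296) and mia, a testis TAF, by 0.33 (SE 0.10, adjusted p 0.183). None of the 14 had a difference as low as that of janA.

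Histidine phosphorylation was examined because of the family's mammalian relative. Nucleoside diphosphate kinases pass phosphate through a histidine, and ATP-citrate lyase and a G protein beta subunit are substrates of PHPT1 in mammals. Of 10 such genes, 8 were measured, with differences from -0.11 to 0.16 and a median of 0.09. limma called none, with 0 at an unadjusted p under 0.05 against 17.7% of all genes. The kinase gene awd differed by 0.16 (SE 0.11), nmdyn-D7 by 0.10 (SE 0.07), ATPCL by 0.11 (SE 0.08) and Gbeta13F by 0.08 (SE 0.07), with adjusted p from 0.484 to 0.601.

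Other cell types were followed by the summed RPKM of their markers, since testis RNA can hold neighbouring tissue and fewer cells of a type cannot be told apart from less RNA per cell. All 24 accessory gland genes were measured, and they summed to 6401 and 6366 in control and to 5134 and 6078 in mutant replicates 1 and 2. Mutant replicate 1 was lowest, and the control sums were close to each other. The most abundant of them, SP, weighed heavily in this sum. Its log2(RPKM) was 11.02 and 10.89 in control and 10.12 and 10.29 in mutant libraries, and a sum without SP was not taken. Of the 24, limma called SP lower and none higher, where 0.955% of all genes were called lower and 0.544% higher. At an unadjusted p under 0.05 in limma stood 7 of the 24 (29.2%), against 17.7% of all genes. The median difference of the 24 was -0.02, with a range of -0.75 to 0.66. Of 7 ejaculatory duct and bulb genes 5 were measured, which summed to 406 and 207 in control and 273 and 398 in mutant libraries. Of 16 gut enzyme genes 6 were measured, with sums of 55.5 and 57.3 in control and 139 and 229 in mutant libraries. Among the 6, 2 were called higher, the trypsin gene alphaTry and the lysozyme gene LysD, and 5 (83.3%) stood at an unadjusted p under 0.05. The 4 measured muscle genes of 10 summed to between 154 and 160 in all libraries. Of 10 stem cell and spermatogonial genes 6 were measured, with sums of 58.5 and 58.2 in control and 56.4 and 50.6 in mutant libraries. Of these 6, 5 had a negative and 1 a positive difference, with a median of -0.07, and limma called none. Of 10 cyst and hub genes 4 were measured, with sums of 29.5 to 32.6. The single measured hemocyte gene, crq, of 6 listed, stood at an RPKM of 3.88 to 4.87. The single measured fat body gene of 9, Adh, stood at an RPKM of 11.3 and 10.3 in control and 18.7 and 20.9 in mutant libraries and was called higher. Of these calls, that of alphaTry held whichever library was left out; those of SP, Adh and LysD were lost without either control replicate, with adjusted p from 0.0779 to 0.175 in limma, and those of Adh and LysD also without mutant replicate 2 (adjusted p 0.0871 and 0.0622). The LysD call was also lost without the variance trend (adjusted p 0.0627) and among genes with a mean log2(RPKM) of at least 3 (0.0606). In the fits without a call the differences were -0.82 and -0.69 for SP, 0.80 to 0.95 for Adh and 0.78 to 1.04 for LysD, beside -0.75, 0.88 and 1.00 with all libraries. The part of these tissues in the differences of janA and janB was not tested.

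The table carries TargetScan marks for predicted targets of miR-313, a member of the deleted cluster. None of janA, janB and ocn carried a mark for miR-313-3p or miR-313-5p, marks that 6.45% and 3.20% of all genes in the table carried. None of the 8 measured flanking genes was marked either.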

How the data were processed

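For 4 testis libraries, 2 mutant and 2 control, the authors deposited expression per gene as log2(RPKM), with TargetScan marks, per the labels and the file headers. The submitters' processing notes name TopHat. The genome build, the read counter and its use of strand are not stated in the labels or headers used here. The lowest value was 1.00, and read depth is unknown. The members and the gene lists were chosen with earlier results of these data known. Every gene was fitted in limma (version 3.58.1, R version 4.3.3), using eBayes with a mean-variance trend and neither a filter nor a pseudocount, and p-values were adjusted over the 7539 genes; the fit was tested on simulated data. Older symbols were matched through a name table (7408 IDs matched) and RefSeq Release 6, used for names and neighbourhood. Genes were named if they were members, measured flanking genes, the 3 nearest in pattern to a member, or called members of a list (otherwise the 4 with the smallest p). SP, CG6770, Dhc98D, betaTub85D, crq, Adh, Caf1, alphaTry and LysD were named after their values were seen. Alternatives were each library left out, median centring, a pseudocount of 1, a mean log2(RPKM) of at least 3, no trend and a replicate block. Protein sequences were not compared here.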

Additional observations from a re-analysis of the deposited data

How the results depend on the processing

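Median centring, a pseudocount of 1 and the replicate block could hardly move the differences of janA, janB and ocn, since the libraries have nearly the same distribution, the genes are abundant and the design is balanced, so these settings say nothing of stability. Leaving out single libraries gave differences of -0.82 to -0.37 for janA, -0.89 to -0.44 for janB and 0.06 to 0.14 for ocn. The shift of janB minus janA ranged from -0.09 to -0.06, that of ocn minus janA from 0.49 to 0.90 and that of ocn minus janB from 0.56 to 0.97. The count over all genes was less stable than these values: limma called 41 higher and 72 lower, and leaving out single libraries gave 8 to 40 higher and 8 to 59 lower. Restricting the fit to the 4106 genes with a mean log2(RPKM) of at least 3 gave 22 higher and 28 lower. With the replicate number as a block, 89 were higher and 149 lower. Over all genes, same-numbered libraries deviated together with a correlation of only 0.06, so the numbers are not taken as pairs. For janA and janB, however, replicate 2 exceeded replicate 1 in both genotypes, by 0.28 and 0.31 in control and 0.44 and 0.45 in mutant testes. For ocn it did so only in the mutant. The replicate block fits the numbers as pairs, but whether the libraries were in fact paired was not tested. No flanking gene and no gene of the spermatid, meiotic arrest or histidine phosphorylation lists was called under any of these settings. Without read counts, the precision that depth gives each value is unknown, and genes that fell below a log2(RPKM) of 1 were not analysed here.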
